A study of Mus musculus with 30 samples.

Results

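Hippocampal transcript levels of wild-type mouse pups were compared between postnatal day 15 (P15) and postnatal day 10 (P10). The samples were chosen by genotype and age alone: 4 wild-type P15 pools and 3 wild-type P10 pools, which are 7 of the 30 samples of the series. The comparison covers all 12422 non-control probe sets of the Affymetrix MG-U74Av2 array, on which 10833 probe sets carry 1 gene symbol and together name 8251 genes.

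The pups were sons of C57BL/6 mice mated with mice heterozygous for Nf1, the neurofibromin gene, and every wild-type pool combined the hippocampi of 2 male wild-type pups. Pools of Nf1 heterozygous males, 4 pools at P15 and 4 at P10, are compared below as a second set of samples for the same interval. All 30 samples, these pools included, enter the estimate of the spread behind the wild-type p-values. The remaining 15 samples were older pups of both genotypes. Each pool has a code of a number and a letter in its title. The P15 pools are 1a, 1b, 2c and 2d and the P10 pools are 1b, 2a and 2b, and values below are listed in that order. What the codes stand for, and which litters and processing days the pools came from, the sources used here do not give, so p-values measure the spread between pools, and the number of arrays limits the precision.

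Early postnatal life of the mouse includes the time when hippocampal axons begin to be myelinated, when astrocytes take on their mature form, and when neurons stop extending neurites and form most of their synapses. Oligodendrocytes wrap axons in a compacted membrane whose main proteins are made in large amounts by these cells. Immature neurons carry cytoskeletal and adhesion proteins of the growth cone that mature neurons largely switch off.

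Transcripts of myelin proteins rose between P10 and P15 and led the named genes in size: the probe set of Mog was 14.2-fold higher at P15, that of Mag 7.75-fold and that of Mbp 3.87-fold. The fold of Mog rests on P10 readings far below the array medians: its log2 change was 3.83, and 2.14 when 32 was added to every value. Astrocyte genes such as Gjb6 and Agt rose by 2.77-fold and 2.6-fold. Of 41 growth cone and immature neuron genes 11 fell, among them Cd24a and Dcx at 0.325 and 0.327 of their P10 level. In limma's test over all samples of the series, with Benjamini-Hochberg adjustment and a threshold of 0.05 on the adjusted p, 367 of 12422 probe sets (2.95%) were called, 209 (1.68%) higher and 158 (1.27%) lower at P15. They named 180 genes that rose and 131 that fell. The count was 209 without the P10 pool 1b, 191 without 2a and 174 without 2b, and 240 without the P15 pool 1b. Calls lost on leaving out a pool are given below for part of the genes. Called genes named only as list members or region markers, such as Ugt8a, Erbb3, Stmn3, Srsf2 and Pde1b, were not checked in this way. The change was over 2-fold for 102 of them, 70 higher and 32 lower, and in 356 of the 367 the pools of the 2 ages did not overlap. Over all probe sets, 6.89% had every P15 pool above every P10 pool and 7.83% had every P15 pool below. Calls were more frequent at bright probe sets: with the probe sets ordered by level and cut into 3 equal groups of about 4140, the dimmest group held 20 calls, the middle one 94 and the brightest 253. The median change was -0.03 over all probe sets on the log2 scale, 0.72 over those called higher and -0.64 over those called lower.

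**Figure D1:**
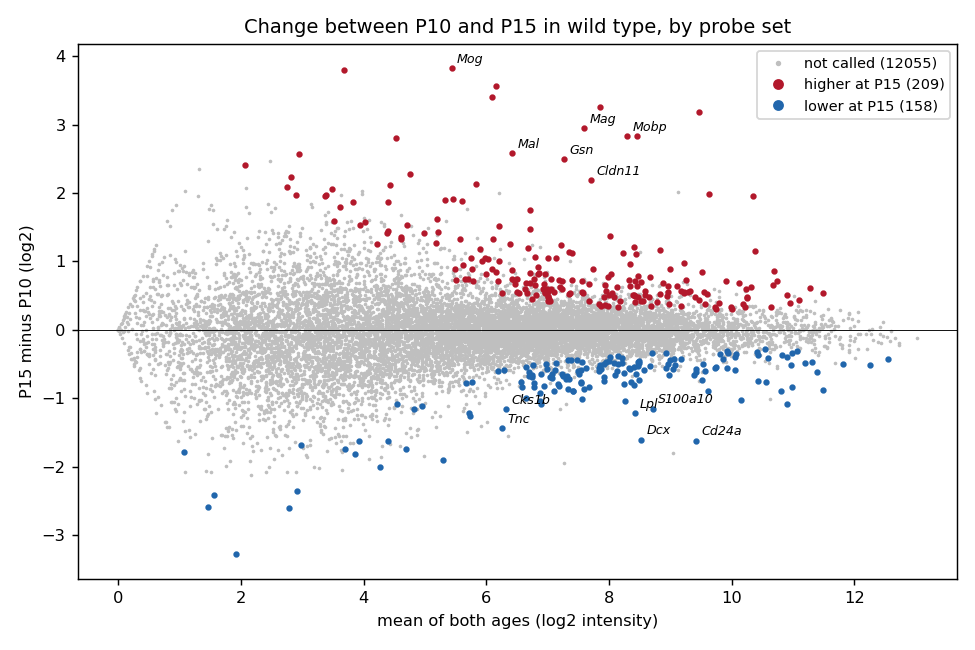
Change between ages (P15 minus P10, log2) against the mean of both ages (log2 intensity), 1 point per probe set. The 209 probe sets called higher and the 158 called lower are coloured, and the 6 leading genes of each direction are labelled. Mog lies highest among the labelled genes at 3.83, and Cd24a lowest at -1.62.

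The 7 arrays were close in level: median intensities were 54.2 to 58.8 at P15 and 55.7 to 58.0 at P10. Correlations of log2 values were 0.952 to 0.964 between P15 pools, 0.953 to 0.955 between P10 pools and 0.948 to 0.956 between pools of different age. The ratio of the 3' to the 5' Gapdh control probe set, a measure of RNA integrity and labelling length, was 0.836 to 0.921 at P15 and 0.904 to 1.04 at P10. Adding it as a covariate gave 417 calls, 267 of them among the 367. Nf1 itself was dim, with 12, 4.1, 6.9 and 5.44 intensity units at P15 and 1.43, 9.41 and 4.36 at P10.

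The P15 pools fell into pairs by the number in their code for some genes, which bears on the sizes given below. Some genes known for high levels outside the hippocampus were higher in pools 2c and 2d. Penk, the enkephalin precursor abundant in the striatum, read 271, 280.2, 809 and 1391 at P15 and 232, 226 and 281 at P10. Tac1, the substance P precursor, read 97.4, 99.8, 176 and 202 at P15 and 90.8, 104 and 85.6 at P10. Zic1, a transcription factor of the septum and thalamus, read 345, 138, 685 and 639.8 at P15 and 315, 374 and 444 at P10. In all 3, both pools with code number 2 were above both with number 1 at P15. The opposite order was seen for Wfs1 and Gria1, both high in the hippocampus. Wfs1, a marker of CA1 pyramidal neurons, read 934, 605, 414 and 319 at P15 and 294, 312 and 397 at P10. Gria1, a subunit of AMPA-type glutamate receptors, read 1442, 1384, 661 and 550.2 at P15 and 903, 866 and 750.2 at P10. None of these 5 was called, and they were picked after their values were seen. The hippocampal transcription factor gene Zbtb20 did not order by number, with 295, 436, 354 and 323 at P15 and 568, 494 and 510.2 at P10. Over all probe sets, 21% had both number 1 pools above both number 2 pools at P15, and 22.2% had them below. Among the 209 called higher, 42.1% had number 1 above and 15.8% below. For some genes, changes are therefore also given within each number. There the P15 pools 1a and 1b are set against the P10 pool 1b, and 2c and 2d against 2a and 2b. The part that dissection or region played in any result was not tested.

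Of 18 listed genes of myelin structural proteins, 9 were measured, and 6 of the 9 rose (66.7%, against 3.3% of all 8251 genes called in either direction). None fell, and the median change of the 9 was 2.19 on the log2 scale. Mog, the oligodendrocyte glycoprotein on the outermost myelin layer (chromosome 17, 37010740 to 37023398, GRCm38.p6), read 225, 258, 99.9 and 122 intensity units at P15 and 22.1, 6.24 and 11 at P10. Every P15 pool was above every P10 pool, and the change was 3.83 ± 0.44 (log2, SE; adjusted p = 8.96e-06). Mag, the adhesion molecule on the membrane facing the axon, read 649, 710.3, 299.6 and 607 at P15 and 77, 71.8 and 60.6 at P10. That is a change of 2.95 ± 0.27 on the log2 scale (adjusted p = 3.22e-07). Mbp, the basic protein that holds the cytoplasmic faces of myelin together, read 2924, 2908, 1982 and 2587 at P15 and 689, 649.7 and 655 at P10. Its change of 1.95 ± 0.12 (log2, SE) had the smallest adjusted p of these genes, 4.98e-10.

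Mobp, a small basic myelin protein, had 4 probe sets and all 4 were called, with changes of 2.83, 3.26, 3.40 and 3.56 on the log2 scale. The probe set with the smallest p read 1154, 1099, 522 and 761 at P15 and 128, 127 and 103 at P10. Mal, a proteolipid of myelin membrane traffic, read 339.9, 388, 113 and 130 at P15 and 39.5, 39 and 27.8 at P10 (2.58 ± 0.46, log2, SE; adjusted p = 0.00189). Cldn11, the claudin of the tight junctions within the myelin sheath, read 479.7, 502, 362 and 462 at P15 and 98.8, 89.3 and 106 at P10. Its change was 2.19 ± 0.21 on the log2 scale (adjusted p = 5.25e-07). The 3 members that were not called had small differences: Cnp 0.36, Gjb1 0.18 and Pmp22 -0.01 (log2).

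All 6 called myelin genes were higher in both number 1 pools than in both number 2 pools at P15. Within number 1 the change of Mog was 3.44 and within number 2 it was 3.74. Mal differed more, at 3.2 within number 1 and 1.88 within number 2, and Mbp little, at 2.08 and 1.8. All 6 were called within each number and without each pool in turn. Second probe sets of 3 of these genes were not called: that of Mag had -0.27 (adjusted p = 0.698), that of Mbp 0.32 (adjusted p = 0.133) and that of Cldn11 0.88 (adjusted p = 0.321).

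**Figure D2:**
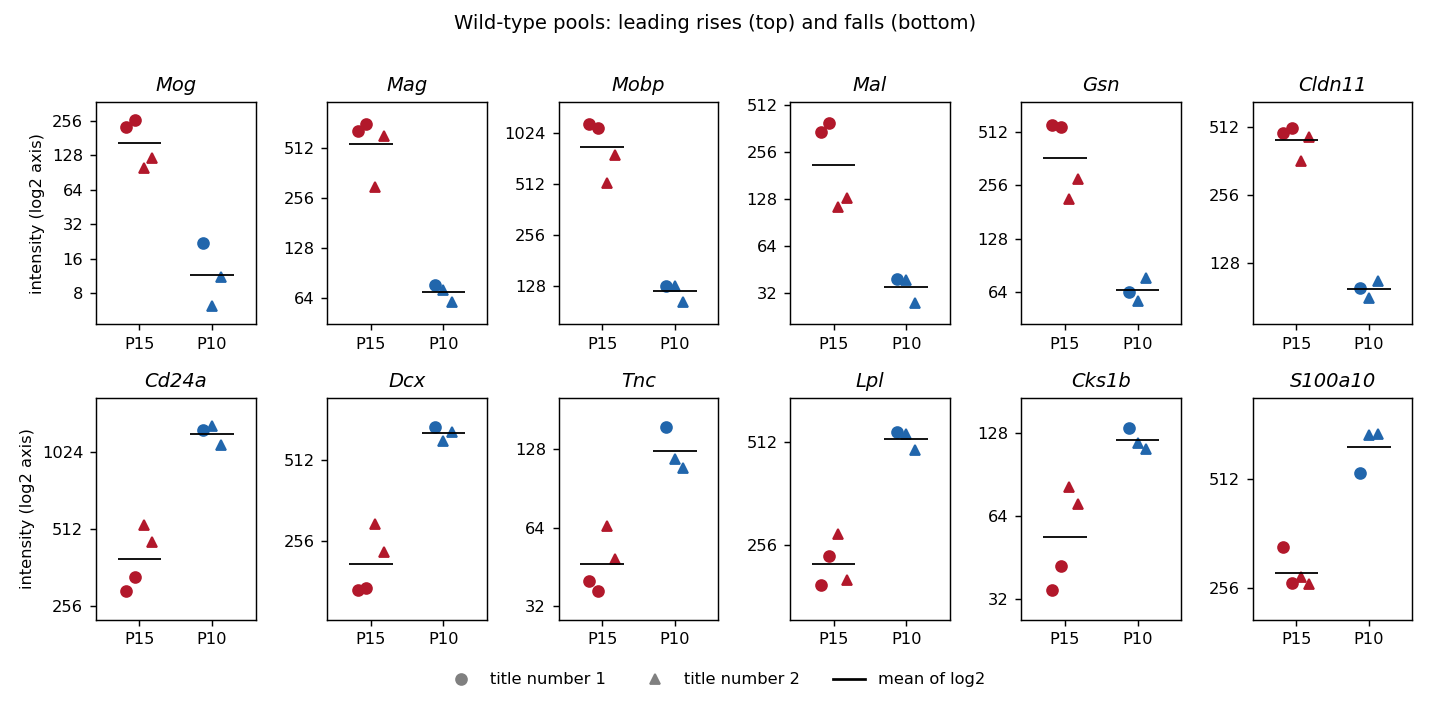
Intensity (log2 axis) of the 6 genes with the largest called rise (top) and fall (bottom), 1 point per pool, P15 left of P10. Circles are pools with code number 1, triangles pools with number 2, and lines are means of log2 values. P15 and P10 pools do not overlap in any panel. Among the P15 pools the circles lie above the triangles for Mog, Mag, Mobp, Mal, Gsn and Cldn11. The circles lie below the triangles for Cd24a, Dcx, Tnc and Cks1b.

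The wider oligodendrocyte list held 18 measured genes of lineage factors and enzymes. Of these 8 rose and none fell (44.4%, against 3.3% of all genes), with a median of 0.49 on the log2 scale. Gsn, the actin-severing protein gelsolin that mature oligodendrocytes contain in quantity, read 561, 543, 214 and 277 at P15 and 64, 56.5 and 76.4 at P10. Its change was 2.49 ± 0.30 on the log2 scale (adjusted p = 1.34e-05), with 3.11 within number 1 and 1.89 within number 2. Myrf, the transcription factor that switches on myelin genes, read 127, 99.7, 87.9 and 132 at P15 and 47.7, 33.4 and 52.9 at P10 (1.33 ± 0.19, log2, SE; adjusted p = 0.000108). Ugt8a, which makes the myelin lipid galactosylceramide, rose by 1.92 on the log2 scale, the neuregulin receptor gene Erbb3 by 1.62 and the transcription factor gene Nkx6-2 by 1.53. The P15 and P10 pools overlapped for Nkx6-2. Septin4 rose by 1.14, with 1.64 within number 1. Within number 2 Septin4 had 0.63 and was not called (adjusted p = 0.0527). The deacetylase gene Sirt2 rose by 0.84, and Sirt2 was bright, with 1133, 1181, 752 and 938 at P15 and 539.9, 547 and 565 at P10. Car2, the carbonic anhydrase of oligodendrocytes, rose by 0.55. Pdgfra, the receptor that marks oligodendrocyte precursors, was not called and had -0.25, and the lineage factor Sox10 was not called at 0.43. In whole tissue, a change in the number of cells of a type cannot be told apart from a change in RNA per cell, here and below.

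The stretches of 150 bases just before the annotated starts of 5 leading genes are shown, to be searched for 3 well known promoter motifs. They are on RefSeq's GRCm38.p6, 5′ to 3′ on the gene's strand: Mog chr17:37023399-37023548, minus strand; Mobp chr9:120149592-120149741, plus; Cldn11 chr3:31149770-31149919, plus; Cela1 chr15:100687921-100688070, minus; Cks1b chr3:89418292-89418441, minus. Mog, Mobp, Cldn11 and Cela1 rose and Cks1b fell. Capitals mark exact matches on both strands to the TATA box TATAAA, the CAAT box motif CCAAT and the GC box motif CCGCCC, which can overlap.
Mog: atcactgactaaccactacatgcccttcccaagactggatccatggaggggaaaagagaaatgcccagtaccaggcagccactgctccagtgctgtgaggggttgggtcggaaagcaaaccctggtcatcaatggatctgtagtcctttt
Mobp: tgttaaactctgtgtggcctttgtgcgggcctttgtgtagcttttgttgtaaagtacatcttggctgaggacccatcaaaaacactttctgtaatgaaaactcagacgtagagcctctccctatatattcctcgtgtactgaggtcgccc
Cldn11: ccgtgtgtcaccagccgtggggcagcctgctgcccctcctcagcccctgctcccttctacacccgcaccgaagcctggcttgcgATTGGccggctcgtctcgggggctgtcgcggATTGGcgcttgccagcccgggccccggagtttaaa
Cela1: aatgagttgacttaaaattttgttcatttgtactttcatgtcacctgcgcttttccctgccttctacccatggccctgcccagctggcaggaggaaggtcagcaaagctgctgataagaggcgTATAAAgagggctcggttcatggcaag
Cks1b: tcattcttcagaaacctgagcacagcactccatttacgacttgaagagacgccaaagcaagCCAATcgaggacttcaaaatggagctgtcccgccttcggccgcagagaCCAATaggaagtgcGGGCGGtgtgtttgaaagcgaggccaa

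Mog and Mobp held none of the 3 motifs in this window, Cldn11 held CCAAT in 2 places on the opposite strand, and Cela1 held TATAAA 27 bases before its start. Cks1b held CCAAT in 2 places and CCGCCC once. TATAAA was present in 7.17% of the 6572 measured genes with a listed promoter, in 6.25% of the 144 that rose and in 11.5% of the 87 that fell. CCAAT was present in 31.7% of all, in 31.9% of those that rose and in 36.8% of those that fell. CCGCCC was present in 53.5% of all, in 61.8% of those that rose and in 65.5% of those that fell. These shares are descriptions of letters in a window and were not tested.

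Of 15 measured astrocyte genes, 7 rose and none fell (46.7%, against 3.3% of all genes), with a median of 0.52 on the log2 scale. Gjb6, the gap junction protein connexin 30 of mature astrocytes, read 229, 200, 134 and 149 at P15 and 49.4, 62.2 and 80.4 at P10. Every P15 pool was above every P10 pool, and the change was 1.47 ± 0.17 (log2, SE; adjusted p = 8.96e-06). A second probe set of Gjb6 rose by 1.52, and another was not called, at 0.06. Agt, angiotensinogen, read 307, 339.5, 527 and 562 at P15 and 154, 198 and 137 at P10 (1.38 ± 0.22, log2, SE; adjusted p = 0.000729). Agt had the pool order opposite to the myelin genes, with 2c and 2d above 1a and 1b. Its change was 1.07 within number 1, where P10 is a single pool and Agt was not called, and 1.72 within number 2. S100b, a calcium-binding protein, read 169, 147, 169 and 129 at P15 and 83.9, 89.8 and 86.9 at P10. Ntsr2, an astrocytic neurotensin receptor, read 725, 779, 644 and 652 at P15 and 403, 367 and 365 at P10. S100b rose by 0.81 and Ntsr2 by 0.88 on the log2 scale. Aldoc, the brain aldolase, read 2292, 2035, 2144 and 2349 at P15 and 1346, 1280 and 1409 at P10, with the narrow error of 0.71 ± 0.09 (log2, SE). Ndrg2 rose by 0.71 and Clu, clusterin, by 0.62.

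Other astrocyte markers were not called. Gfap, the intermediate filament, read 335, 341, 493 and 518 at P15 and 241, 435 and 229 at P10, and the P10 pool 2a lay among the P15 pools (0.52, 95% interval 0.08 to 0.95, adjusted p = 0.228). Aqp4, the water channel, read 898, 829, 789 and 667 at P15 and 1148, 1121 and 1035 at P10. The P15 pools of Aqp4 were all lower, but the difference of -0.48 was not called (95% interval -0.82 to -0.14, adjusted p = 0.131). Glul, glutamine synthetase, was not called at 0.51, nor the glutamate transporter gene Slc1a2 at -0.37 (log2).

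Metallothioneins, the small metal-binding proteins that are abundant in astrocytes, were among the bright rises. Mt1 read 2553, 2446, 1648 and 1492 at P15 and 885, 871 and 923 at P10 (1.15 ± 0.16, log2, SE; adjusted p = 0.000108). Mt2 read 2452, 2327, 1746 and 1837 at P15 and 1243, 1324 and 1367 at P10, and Mt3 rose by 0.61 on the log2 scale. The P15 pools of Mt1 and Mt2 were all above the P10 pools and again split by number. With the heat shock genes Hspa2 and Hspa1b, 5 of 63 chaperone and metallothionein genes rose and none fell (7.94%, against 3.3% of all genes). The median of the 63 was 0.04. Hspa2 was not called without P10 2b (highest adjusted p = 0.063).

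Other non-neuronal lists held fewer calls. Of 17 microglia genes, 2 rose and none fell (11.8%, against 3.3% of all genes), with a median of 0.22. Ctss, the lysosomal protease cathepsin S, read 532, 493, 439 and 418 at P15 and 249.7, 312 and 313 at P10 (0.69 ± 0.12, log2, SE; adjusted p = 0.00144). Ctss had 1.04 within number 1. Within number 2 it had 0.46 and was not called (adjusted p = 0.0573). C1qc, a chain of the first complement component, rose by 0.71, but was not called without P15 1a, 2c or 2d or P10 1b or 2b (highest adjusted p = 0.263). The microglia genes summed to between 3026 and 3464 intensity units at P15 and between 2338 and 2758 at P10. Of 17 endothelial genes only Slc2a1 was called (5.88%, against 3.3% of all genes), the glucose transporter of the blood-brain barrier. Slc2a1 read 174, 154, 157 and 149 at P15 and 78.7, 95.5 and 77.8 at P10 (0.92 ± 0.18, log2, SE; adjusted p = 0.00433). The median of the endothelial list was -0.26, and Cldn5, the claudin of brain endothelium, was not called at -0.48 (95% interval -0.83 to -0.14). None of 16 mural and fibroblast genes was called, with a median of -0.24.

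The choroid plexus, which lies against the hippocampus, was represented by 8 genes, none of which was called, with a median of 1.28 on the log2 scale. Ttr, the transthyretin made in quantity by this epithelium, read 918, 1244, 968 and 1452 at P15 and 912, 64.5 and 369 at P10. The P10 pool 1b was just below the lowest P15 pool, and the 3 P10 pools spanned a wide range. The list summed to between 1787 and 2648 units at P15 and to 1771, 675 and 1167 at P10. Its part in other results was not tested. None of 4 blood genes was called, and Hba-a1, an alpha-globin, read 2077, 1915, 2212 and 2131 at P15 and 1881, 2243 and 2278 at P10.

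Of 41 measured genes of immature neurons and the growth cone, 11 fell and none rose (26.8%, against 3.3% of all genes). Their median was -0.37, against -0.03 over all 8251 genes, and 37 of the 41 had a negative value. Cd24a, a surface glycoprotein of newly born neurons (chromosome 10, 43579169 to 43584265), read 293, 332, 531 and 458 at P15 and 1245, 1291 and 1094 at P10. The change was -1.62 ± 0.20 (log2, SE; adjusted p = 1.94e-05). Dcx, doublecortin, the microtubule-binding protein of migrating neurons (chromosome X, 143855842 to 143933396), read 168, 170.4, 297 and 232 at P15 and 679, 604 and 651 at P10 (-1.61 ± 0.20, log2, SE; adjusted p = 2.19e-05). The 2 genes shared a pattern among the P15 pools, with 1a and 1b lowest. Within number 1 Dcx had -2.01 and within number 2 it had -1.26, and Cd24a had -2 and -1.27.

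Cytoskeletal genes of the extending neurite were part of this list. Nrep, a small protein of regenerating neurons, read 1608, 1151, 1275 and 1262 at P15 and 2451, 2943 and 2968 at P10 (-1.08 ± 0.18, log2, SE; adjusted p = 0.000699). Dpysl3, a collapsin response mediator that shapes the growth cone, read 112, 141, 155 and 132 at P15 and 237, 266 and 309 at P10. It fell by 1.01 on the log2 scale and was not called without P10 2b (highest adjusted p = 0.0706). Its relative Crmp1 fell by 0.84, the microtubule destabiliser Stmn1 by 0.61 and Stmn3 by 0.40. Mapt, the microtubule-associated protein tau, had 3 called probe sets, which fell by 0.89, 0.89 and 0.90. Ncam1, the neural cell adhesion molecule, fell by 0.76, and the transcription factor gene Neurod1 also by 0.76. Fabp7, the lipid-binding protein of radial glia, narrowly missed the threshold, with 846, 932, 1441 and 1360 at P15 and 2275, 2310 and 2152 at P10 (adjusted p = 0.0537). Gap43, a classic growth cone protein, read 1291, 1142, 1698 and 1629 at P15 and 1954, 2207 and 2013 at P10. All P15 pools of Gap43 were below all P10 pools, but the difference of -0.53 was not called (95% interval -0.89 to -0.18, adjusted p = 0.0996).

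St8sia2, the enzyme that adds polysialic acid to Ncam1 in the young brain, read 71.7, 86, 94 and 76.3 at P15 and 184, 206 and 135 at P10. Every P15 pool was lower, with -1.08 ± 0.29 (log2, SE; adjusted p = 0.045), but the call was lost on leaving out each of the 7 pools in turn (highest adjusted p = 0.189). Of 41 axon guidance genes, 3 fell and none rose (7.32%, against 3.3% of all genes), with a median of 0.01. They were Nrp1, a semaphorin receptor (-0.62), Epha5, an ephrin receptor (-0.67), and Efnb3, an ephrin (-0.40). Nrp1 was not called without P15 2d or P10 1b, 2a or 2b (highest adjusted p = 0.123), Epha5 without P15 2c or 2d or P10 1b or 2b (highest adjusted p = 0.184) and Efnb3 without P15 1a or 1b or P10 1b, 2a or 2b (highest adjusted p = 0.159). A second probe set of Efnb3 had 0.22 (adjusted p = 0.768), so the 2 probe sets of this gene differed in sign.

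Of 19 genes of the neural extracellular matrix, 2 fell and none rose (10.5%, against 3.3% of all genes), with a median of -0.15. Tnc, tenascin C, the matrix glycoprotein of the immature brain, read 39.9, 36.6, 65.2 and 48.6 at P15 and 157, 118 and 108 at P10 (-1.44 ± 0.25, log2, SE; adjusted p = 0.00163). Tnc had -2.03 within number 1. Within number 2 it had -1.0 and was not called (adjusted p = 0.0762). Ncan, the proteoglycan neurocan, read 136, 135, 156 and 156 at P15 and 246, 219.6 and 220.5 at P10. The fall of 0.65 on the log2 scale was not called without P15 1a or 1b or P10 1b, 2a or 2b (highest adjusted p = 0.134). Reln, reelin, was not called, with 394, 401, 546 and 472 at P15 and 639, 657 and 626 at P10 (adjusted p = 0.0538).

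Of 38 genes of the cell cycle and DNA replication, 1 was called (2.63%, against 3.3% of all genes), the replication helicase gene Mcm5. A negative value was found in 34 of the 38, and their median was -0.30, against -0.03 over all 8251 genes. Mcm5 read 81, 82.8, 74.6 and 101 at P15 and 164, 123 and 149.6 at P10. Its fall of 0.78 on the log2 scale was not called without P15 1a, 1b or 2c or P10 1b or 2b (highest adjusted p = 0.158). Cks1b, a subunit of cyclin-dependent kinases that belongs to the leading falls, read 34.5, 42.2, 81.1 and 70.8 at P15 and 133, 117 and 111 at P10. Cks1b changed by -1.16 ± 0.32 (log2, SE; adjusted p = 0.0468), with -1.8 within number 1 and -0.59 within number 2, and was not called without P15 1a or 1b or P10 1b, 2a or 2b (highest adjusted p = 0.156). With only the P15 pools 2c and 2d, the change of Cks1b was -0.67 (adjusted p = 0.38).

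**Figure D3:**
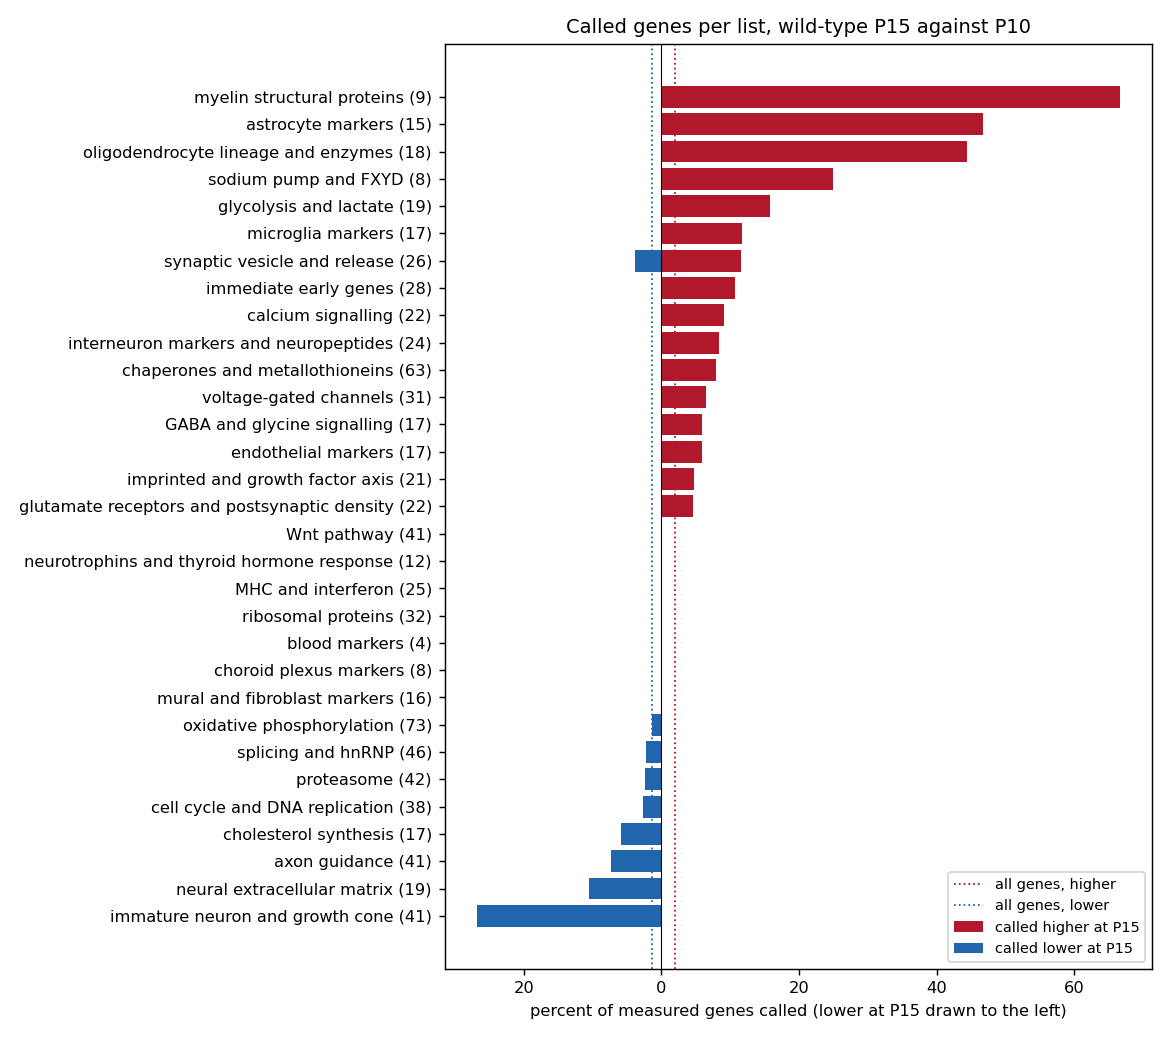
Percent of the measured genes of each of 31 lists that were called higher (red, to the right) or lower (blue, to the left) at P15, with the number measured in brackets. Dotted lines are the percents of all 8251 genes. Myelin, astrocyte and oligodendrocyte lists reach furthest to the right, with 66.7, 46.7 and 44.4%, and immature neuron genes furthest to the left, with 26.8%.

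In the synaptic vesicle list, 3 of 26 genes rose and 1 fell (15.4%, against 3.3% of all genes), with a median of 0.24. Nsf, the ATPase that recycles fusion complexes, read 1466, 1365, 1582 and 1241 at P15 and 946, 958 and 750 at P10 (0.68 ± 0.13, log2, SE; adjusted p = 0.00458), and was not called without P10 2b (highest adjusted p = 0.0519). Syt2, the calcium sensor of fast-releasing terminals, read 155, 154, 116 and 146 at P15 and 98.1, 71.4 and 85.5 at P10. Syt4, another synaptotagmin, read 144, 135, 125 and 106 at P15 and 207, 201 and 219 at P10. Its mean log2 intensity was 6.56 at P18 and 7.58 at P32, against 7.7 at P10. Syt2 thus rose by 0.75 and Syt4 fell by 0.72 on the log2 scale, though Syt2 was not called without P15 1a, 1b or 2d or P10 2a or 2b (highest adjusted p = 0.167) and Syt4 was not called without P15 2c or 2d or P10 1b, 2a or 2b (highest adjusted p = 0.117). Vamp1, a vesicle fusion protein, was dim, with a mean log2 intensity of 5.94 at P15 and 3.13 at P10; it rose by 2.81, and its second probe set had -0.25 and was not called.

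Of 22 genes of glutamate receptors and the postsynaptic density, 1 rose, the scaffold gene Dlg1, and none fell (4.55%, against 3.3% of all genes). The median of the 22 was 0.11. Dlg1 read 459, 378, 408 and 377 at P15 and 225, 322 and 315 at P10, and it was not called without P15 1a, 1b, 2c or 2d or P10 1b or 2b (highest adjusted p = 0.269). The AMPA receptor subunit gene Gria2 read 2424, 2359, 2384 and 2244 at P15 and 2316, 1962 and 2129 at P10, which leaves a difference of 0.14 with a 95% interval from -0.06 to 0.35. The NMDA receptor subunit gene Grin2b was dim, with 26.2 to 63 units at P15 and 42.8 to 67.1 at P10, and was not called. Grin2c was not called either, with 157, 150, 119 and 119.8 at P15 and 78.7, 119.5 and 79.1 at P10.

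Of 17 genes of GABA and glycine signalling, Gad1 alone was called (5.88%, against 3.3% of all genes). Gad1, which makes GABA, read 1406, 1371, 1632 and 1561 at P15 and 1035, 959 and 947 at P10 (0.60 ± 0.10, log2, SE; adjusted p = 0.00134). All 4 P15 pools of Gad1 were above the P10 pools, with 2c and 2d above 1a and 1b. Its change was 0.42 within number 1, where P10 is a single pool and Gad1 was not called, and 0.74 within number 2. Slc12a2, the chloride importer that keeps GABA depolarising in young neurons, read 671, 646, 478 and 489 at P15 and 383, 344 and 361 at P10 and was not called (0.64, 95% interval 0.22 to 1.06, adjusted p = 0.0927). Slc12a5, the chloride exporter of mature neurons, was dim, with 51.8, 43, 46.6 and 48.2 at P15 and 34.8, 53.4 and 47.8 at P10. Its difference of 0.08 had a 95% interval from -0.45 to 0.61. The threshold on the adjusted p is stricter than this interval, so changes of that size could also have gone uncalled. Several subunit genes of GABA-A and NMDA receptors were not analysed here.

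Among 24 interneuron genes, Gad1 and Pvalb rose (8.33%, against 3.3% of all genes). Pvalb, the calcium buffer of fast-spiking interneurons, read 617, 595, 494 and 485 at P15 and 376, 435 and 333 at P10 (0.52 ± 0.12, log2, SE; adjusted p = 0.0187), and its second probe set rose by 1.87. The brighter probe set was not called without P15 1a or 1b or P10 1b or 2b (highest adjusted p = 0.137). Sst, somatostatin, read 2138, 1846, 1449 and 1641 at P15 and 1592, 2039 and 1787 at P10, and Npy, neuropeptide Y, 602, 676, 468 and 598 at P15 and 574, 588 and 591 at P10. Both overlapped between ages and had intervals that included 0, from -0.37 to 0.3 for Sst and from -0.23 to 0.21 for Npy.

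Of 31 voltage-gated channel genes, 2 rose and none fell (6.45%, against 3.3% of all genes). Scn1a, the sodium channel of fast-spiking interneurons, read 379.5, 376, 326 and 317 at P15 and 198, 214 and 267 at P10, and Kcnab2, a subunit of axonal potassium channels, read 828, 897, 718 and 722 at P15 and 451, 501 and 470.5 at P10. Their changes were 0.63 ± 0.15 and 0.73 ± 0.16 (log2, SE), but Scn1a was not called without P15 1a or 1b or P10 1b or 2a (highest adjusted p = 0.11) and Kcnab2 was not called without P10 1b or 2b (highest adjusted p = 0.0623). Of 22 calcium signalling genes, Camk2a and the calcineurin subunit gene Ppp3r1 rose (9.09%, against 3.3% of all genes). Ppp3r1 was not called without P15 1a or P10 1b, 2a or 2b (highest adjusted p = 0.113). Camk2a, the kinase of excitatory synapses, was dim on this array, with 48.1, 60, 84.8 and 50.6 at P15 and 13.2, 14.5 and 9.66 at P10. It changed by 2.27 ± 0.57 (log2, SE; adjusted p = 0.0281), and had 1.05 when 32 was added to every value before the logarithm, which was not called (adjusted p = 0.0739). Both of its probe sets were called. The brighter one was not called without P15 1b or 2c or P10 1b, 2a or 2b (highest adjusted p = 0.128). Its partner gene Camk2b was bright and not called, at 0.11 (95% interval -0.06 to 0.28).

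Of 28 immediate early genes, which neurons transcribe within minutes of activity, 3 rose and none fell (10.7%, against 3.3% of all genes). Their median was 0.24. Egr1 read 397, 408, 342 and 267 at P15 and 211, 192 and 191 at P10 (0.82 ± 0.18, log2, SE; adjusted p = 0.0102). Nr4a1 read 200, 167, 146 and 119.5 at P15 and 90, 114 and 65.5 at P10, and Rgs2, a brake on G protein signalling, rose by 0.59. For both Egr1 and Nr4a1 all P15 pools were above all P10 pools and number 1 was above number 2. Egr1 was not called without P10 2a or 2b (highest adjusted p = 0.0537), nor Nr4a1 without P15 1a, 1b or 2c or P10 1b or 2b (highest adjusted p = 0.265). Fos was similar in size but not called, with 147, 126, 112 and 93.2 at P15 and 73.4, 53.4 and 74.1 at P10 (0.83, adjusted p = 0.0558). Over the list, 60.7% of genes had number 1 above number 2 at P15, against 21% of all probe sets.

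Of 19 genes of glycolysis and lactate handling, Aldoc, Eno2 and Slc2a1 rose and none fell (15.8%, against 3.3% of all genes), with a median of 0.18. Eno2, the neuronal enolase, read 1519, 1440, 1448 and 1343 at P15 and 1042, 1036 and 1011 at P10, with a rise of 0.48 that was not called without P15 1a, 1b or 2c or P10 1b, 2a or 2b (highest adjusted p = 0.119). Of 73 genes of oxidative phosphorylation, 1 fell, the complex III subunit gene Uqcrb (1.37%, against 3.3% of all genes). The median of the 73 was 0.05. Uqcrb was not called without P15 2d or P10 1b or 2b (highest adjusted p = 0.0706). Of 17 genes of cholesterol synthesis, 1 fell, Fdps, which makes farnesyl diphosphate (5.88%, against 3.3% of all genes). The median of the 17 was -0.27. Fdps read 869.6, 824, 860 and 941 at P15 and 1095, 1158 and 1061 at P10, and the other 16 included Sqle with 737, 738, 769.7 and 689 at P15 and 987, 958 and 872 at P10. The fall of Fdps was not called without P15 1a, 1b or 2c or P10 1b, 2a or 2b (highest adjusted p = 0.175). Of 8 genes of the sodium pump and its FXYD regulators, Fxyd1 rose by 0.96 and Atp1b1 by 0.50 (25%, against 3.3% of all genes). None fell, but 5 of the 8 had a negative value, and the median was -0.14. A second probe set of Atp1b1 had 0.04 and was not called. Fxyd1 was not called without P10 2a or 2b (highest adjusted p = 0.0912), and Atp1b1 was not called without P15 1a, 1b or 2c or P10 1b, 2a or 2b (highest adjusted p = 0.0928).

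Housekeeping lists held few or no calls. None of 32 ribosomal protein genes was called, with a median of -0.13. The proteasome list held 1 fall among 42, Psme1 (2.38%), and the splicing list 1 among 46, Srsf2 (2.17%), against 3.3% of all genes. The medians of these lists were -0.06 and -0.12. Psme1 was not called without P15 1a, 1b or 2d or P10 1b or 2a (highest adjusted p = 0.164). None of 25 genes of antigen presentation and interferon, 12 of neurotrophins and thyroid hormone response, or 41 of the Wnt pathway was called. Bdnf, the neurotrophin, read 662, 716, 632 and 555 at P15 and 579, 608 and 577 at P10, a difference of 0.12 with a 95% interval from -0.27 to 0.51.

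Several leading genes belonged to none of the cell type lists. Cela1, a pancreatic-type elastase gene, read 96.7, 136, 139.5 and 112 at P15 and 59.3, 18.7 and 18.5 at P10 (2.13 ± 0.35, log2, SE; adjusted p = 0.000802). The P10 pool 1b stood above the other P10 pools, and the change was 2.75 within number 2. Within number 1 it was 0.95 and missed the threshold (adjusted p = 0.536). With 32 added to every value, the change of Cela1 over all 7 pools was 1.30. Impact, an imprinted regulator of translation, read 180, 115, 243 and 267 at P15 and 52.3, 57.2 and 62.3 at P10 (1.75 ± 0.34, log2, SE, adjusted p = 0.00402). It was the only one of 21 imprinted and growth factor genes called (4.76%, against 3.3% of all genes). With only the P15 pools 1a and 1b, Impact had 1.33 (adjusted p = 0.0547). Tnni1, the slow troponin I gene, read 135, 133, 106 and 150.3 at P15 and 63.9, 30.9 and 80.9 at P10. Pcp4l1 and Itih3 rose by 1.23 and 1.19 on the log2 scale, and both calls were lost without the P10 pool 2a, in which they were lowest (adjusted p = 0.097 and 0.136).

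Among the falls, Lpl, lipoprotein lipase, read 195, 238, 275 and 202 at P15 and 548, 541 and 486 at P10 (-1.22 ± 0.23, log2, SE; adjusted p = 0.00371), and its second probe set fell by 1.26. Lpl had -1.35 within number 1. Within number 2 it had -1.12 and was not called (adjusted p = 0.0534). S100a10, an annexin partner, read 332, 265, 274 and 263 at P15 and 532, 681 and 685 at P10. Lmo1, a transcriptional cofactor, read 198, 231, 219.5 and 204 at P15 and 475, 485 and 369 at P10, with a narrow spread among the P15 pools (-1.05 ± 0.14, log2, SE; adjusted p = 4.85e-05). S100a10 and Lmo1 were among the falls in which the P15 pools did not order by number. Phtf2, Znrf2, Rimklb, Agap3 and Setdb1 fell by 0.89 or more on the log2 scale. Setdb1, a histone methyltransferase gene, was not called without P10 1b or 2a (highest adjusted p = 0.0774). Within number 1, Agap3 had -0.67 and was not called (adjusted p = 0.348).

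All 15 leading rises and all 15 leading falls had the same direction within both numbers. Within number 1, where P10 is a single pool assumed to vary like the others, 9 of the 15 rises and 9 of the 15 falls were called, and within number 2 there were 14 and 8. With all P10 pools, the P15 pools 1a and 1b alone gave 389 calls, 230 of them among the 367, and the pools 2c and 2d alone gave 256, of which 160 were among the 367. Both of these fits were chosen after the data were seen. The 6 myelin calls remained in each, and of the growth cone list 13 were called with pools 1a and 1b and 8 with 2c and 2d. The oligodendrocyte list had 8 calls with 1a and 1b and 6 with 2c and 2d, and the astrocyte list 7 and 5. Immediate early genes had 4 calls with 1a and 1b and 1 with 2c and 2d, and the matrix list 6 and 1. Some lists turned: oxidative phosphorylation had 3 rises and 0 falls with 1a and 1b and 0 rises and 3 falls with 2c and 2d. Calcium signalling had 2 rises with 1a and 1b and 1 fall with 2c and 2d, and voltage-gated channels had 4 rises with 1a and 1b and 0 with 2c and 2d. For the 65 named calls, other probe sets numbered 34, of which 28 had the same sign. Of the 34, 9 were called the same way and 0 the opposite way. Mobp was entered under both of its named probe sets, so each counted as another probe set of the other. Called genes named only as list members, such as Vamp1 and Mapt, were not part of this count. Among the 34, the other sign was found for 6, those of Mag, Efnb3, Syt2, Egr1, Mcm5 and Psme1.

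The same interval in the heterozygous pools gave 1518 calls (12.2%). They used other samples than the wild-type step but the same fit and the same estimate of the spread. Of the 367 wild-type calls, 284 were also called in the heterozygotes in the same direction, which is 77.4% of the wild-type calls and 18.7% of the heterozygous ones, and 0 were called in the opposite direction. In 350 of the 367 the heterozygous change had the same sign. The change of Mog was 3.83 in wild type and 5.5 in heterozygotes, and that of Mbp 1.95 and 2.7. Of the leading genes, 11 of 15 rises and 11 of 15 falls were larger in the heterozygotes, including all 6 called myelin genes. Tested directly, the difference of the 2 steps was called for 1 probe set (0.00805%), that of the dim cation channel gene Trpc6, with 830 at an unadjusted p below 0.05, and it was called for no myelin gene: the difference was -1.68 for Mog (adjusted p = 0.592) and -0.75 for Mbp (adjusted p = 0.31). Among the leading genes with a smaller heterozygous change was Cela1, which changed by 2.13 in wild-type and 0.57 in heterozygous pools (difference 1.56, adjusted p = 0.456). Setdb1 changed by -0.89 in wild-type pools and had -0.23 in heterozygous ones (difference -0.66, adjusted p = 0.686).

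**Figure D4:**
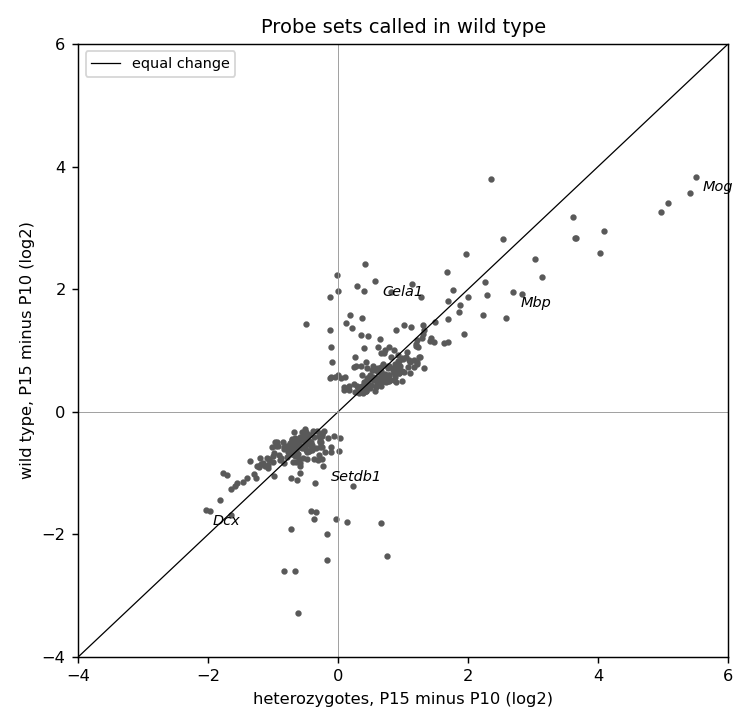
Change between P10 and P15 (P15 minus P10, log2) in wild type (vertical) against heterozygotes (horizontal) for the 367 probe sets called in wild type, with the line of equal change. Most points lie in the quadrants of equal sign (350 of 367), Mog and Mbp lie below the line, and Cela1 lies above it.

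Wild-type pools of later ages, 2 per age, show where these levels went and are given as values only. All P18, P28 and P32 pools carried code number 1 and both P20 pools number 2, while P15 held both numbers. Differences between these ages and P15 are therefore mixed with code number. The Mobp probe set with the smallest p read 2047 and 1870 at P18, 1229 and 1407 at P20, 908 and 865 at P28, and 799 and 847 at P32, so that the P28 and P32 pools lay within the range of the P15 pools. The brightest Mobp probe set did not follow this course: its mean log2 intensity was 9.49 at P15, 10.53 at P18, 10.47 at P20, 10.93 at P28 and 11.09 at P32. Mbp read 3792 and 3389 at P18 and 2828 and 3097 at P32. Mog stayed above its P15 level, with 353 and 343 at P28 and 383 and 366 at P32. Agt was high for a short time, with 380.3 and 552 at P18, 161 and 178 at P28 and 146 and 255 at P32, against 137 to 198 at P10. Of the 15 leading rises, 12 had a P18 mean above the P15 mean, and 9 had a mean of P28 and P32 above it. Of the 15 leading falls, 12 had a P18 mean below the P15 mean. At P15 itself, number 1 lay above number 2 for 8 of the 15 leading rises and below for 3. Among the 15 leading falls it lay above for 1 and below for 6. Dcx read 155 and 146 at P18 and 138 and 136 at P32, below every P15 pool. Lmo1 stayed level after P15, with 219.9 and 211 at P18 and 237 and 228 at P32.

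**Figure D5:**
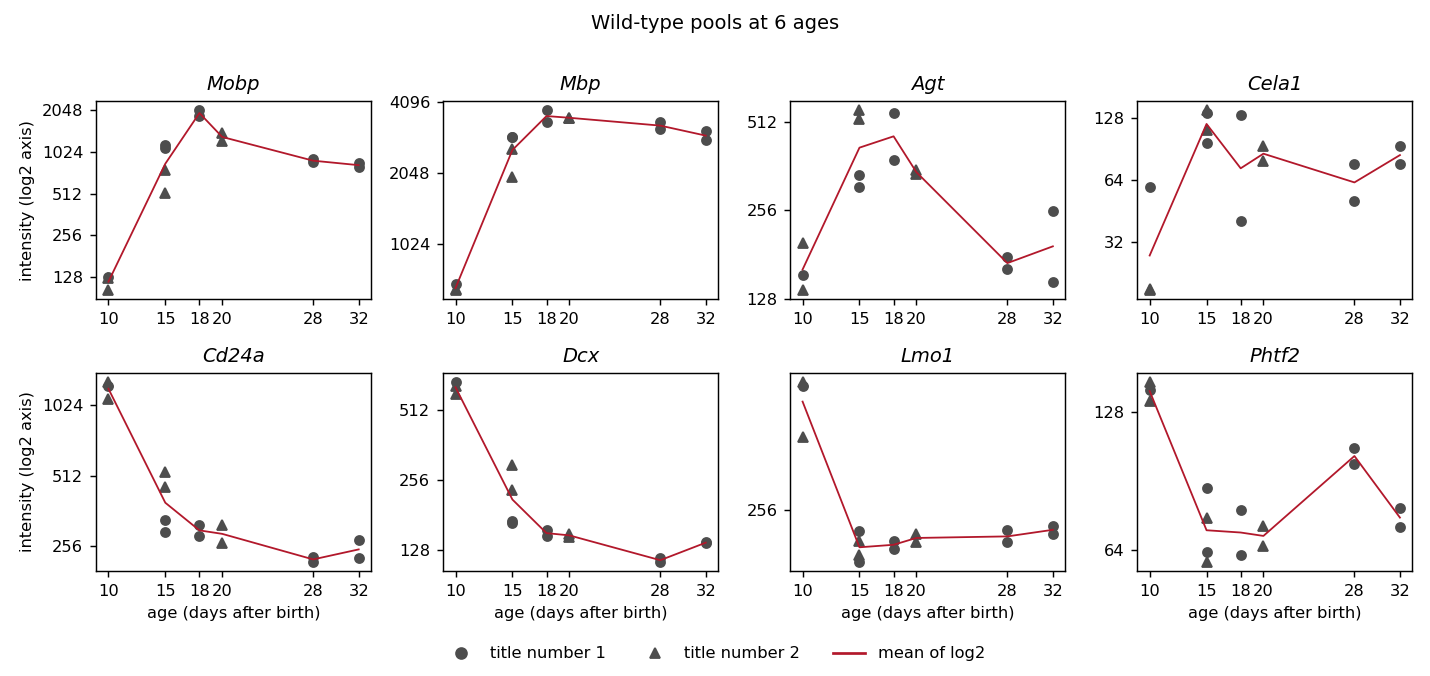
Intensity (log2 axis) of 8 leading genes in wild-type pools against age in days after birth, 1 point per pool, with lines through the means of log2 values. All pools at P18, P28 and P32 carry code number 1 and those at P20 number 2, while P15 holds both. The Mobp probe set shown, the one with the smallest p, is highest at P18, which its brightest probe set is not, and Agt is lower at P28 than at P15, while Cd24a and Dcx decline further after P15 and Lmo1 does not.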

How the data were processed

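Total RNA of pooled hippocampi was measured on single-colour MG-U74Av2 arrays. The authors deposited 1 linear intensity per probe set and array, and the values show that all arrays had been scaled to 1 common trimmed mean. The sources used here do not name the software. Intensities under 1 were raised to 1 before taking log2, with no further normalization. The 66 control probe sets were left out. Linear models with 1 mean per genotype and age were fitted to all 30 samples in limma 3.58.1 (R 4.3.3, statmod 1.5.0), with an intensity trend and two-sided p-values adjusted by Benjamini-Hochberg over 12422 probe sets; called means an adjusted p below 0.05. Groups came from sample titles. The procedure was tested on simulated data with independent noise for each array. Such data cannot show how calls behave where pools pair by code number.

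Symbols came from the platform annotation, updated through RefSeq (10817 probe sets matched). In lists each gene was represented by its brightest probe set. Named were the 15 largest rises and falls among called genes with non-overlapping pools and a mean of at least 100 units, up to 4 genes of each list by size of change, and genes fixed by name. Other genes are named only as called members or stated exceptions of a list, or as markers of regions, chosen after seeing values. Members and lists were chosen with earlier results of these data known. Deviations of the code numbers did not correlate between ages over all probe sets (r = -0.0025), and the numbers were not used to pair pools in the main fit. At P10 number 1 is a single pool. Whether pools of the same number shared a litter or processing day was not tested. The 22 alternatives included filters, floors, quantile normalization, sample subsets and leaving out each pool.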

Additional observations from a re-analysis of the deposited data

Results flagged for a closer look

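Among 166 named probe sets, 4 had a P15 pool set apart from the other 3, and chance alone marks about 5% of groups. Pool 2d was highest for the basement membrane collagen gene Col4a1 (537.8 units; gap over range 0.9123) and lowest for the proteasome subunit gene Psmd12 (105.3; 0.8693). Pool 1a was highest for the histocompatibility gene H2-D1 (212; 0.9123), and pool 2c for calbindin, Calb1 (384.6; 0.8956). None of these 4 genes was called between the ages.

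The step from P10 to P15 differed between genotypes for Trpc6, a cation channel gene. It read 3.89, 2.27, 2.03 and 3.1 units in wild type at P15 and 5.06, 8.75 and 6.64 at P10, all far below the array medians. The wild-type change was -1.28 (log2, adjusted p = 0.0566), the heterozygous change 2.36, and the difference -3.64 (adjusted p = 0.00196). The call of this difference was absent when dim probe sets were left out or compressed.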

How the results depend on the processing

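The main count of 367 calls was within 1.5 times under both dim-value scales, the filter, quantile normalization, array weights, the Gapdh covariate and the sample subsets (247 to 518 calls). Fitting only the 7 compared samples kept 186 of the 367 calls (50.7%) and lost 14 of the 65 named calls. With title number as a replicate block it was 372, of which 342 were among the 367, and 2 named calls were lost, Fdps and Efnb3 (adjusted p = 0.052 for both), which left no call in the cholesterol list and 2 in the axon guidance list. It was 240 without the intensity trend, 141 within title number 1 and 148 within title number 2, where the P10 group holds 1 and 2 pools. Leaving out each pool in turn gave 174 to 293 calls, lowest without the P10 pools (209 without 1b, 191 without 2a and 174 without 2b) and 240 without the P15 pool 1b. The genotype difference of 1 call became 0 with the filter, with log2(value + 32), with the floor of 16 and within number 1, became 2 with the replicate block and 2 with the Gapdh covariate, 25 within number 2, 8 with P15 pools of number 2 alone, and 1 to 5 on leaving out each pool (5 without the P10 pool 2a). Of the 65 named calls, 35 were kept in all 7 omissions, including 13 of 15 rises and 11 of 15 falls, and none reversed under any setting. Some settings added calls among the named genes: 18 without both heterozygous P18 libraries, 20 with only the 15 wild-type samples and 17 with array weights. Their total counts were 518, 507 and 506, which kept 367, 332 and 365 of the 367. Some statements that a gene was not called therefore depend on the fit. Why counts moved was not tested. Changes of probe sets near the floor depend on the scale: Mog had 3.83 as reported and 2.14 with log2(value + 32).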

Other observations

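Some striatal and hippocampal markers, picked after their values were seen, are added here for the P15 pools. Pde1b, a phosphodiesterase abundant in the striatum, read 275, 261, 399.8 and 430.3 at P15 and 198, 198 and 188 at P10, and was called higher (0.77, adjusted p = 0.0193). Drd2, a dopamine receptor gene, read 53.1, 47, 60.3 and 95.9 at P15 and 45.4, 53.6 and 46.6 at P10, and Rgs9, another striatal gene, was below 10 units in all 7 pools. Foxp1, a transcription factor gene of the striatum, did not order by number, with 116, 117, 117 and 145 at P15 and 158, 206 and 215 at P10. Neurod6, a hippocampal gene, did not either, with 303, 335, 324 and 153 at P15 and 363, 378 and 331 at P10. Prox1, a gene of dentate granule cells, read 50.9, 48, 39.7 and 15.5 at P15 and 51.3, 45.7 and 34.5 at P10. Dkk3 read 472, 475, 316 and 279 at P15 and 326, 317 and 362 at P10, with number 1 above number 2 as for Wfs1 and Gria1. Cck, the neuropeptide cholecystokinin, was lower in the number 2 pools at P15 (2594, 2420, 1656 and 1622) and read 2325, 2605 and 2379 at P10.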
